A study of Mus musculus with 12 samples.

Results

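Pnpla7, Pnpla6, Pnpla2, Pnpla8, Ddhd1 and Ddhd2 encode intracellular phospholipases and lipases of the patatin-like and DDHD families. They were chosen by gene name from these families, so they make up 6 of the 15855 genes of the expression table, and all 6 passed the filter on low counts. The group difference of Pnpla7 had been singled out in an earlier analysis of these same samples, so its difference is given below as a description, with no p-value. The other 5 came in by family name, but the whole set was put together with earlier results of these samples known, and their p-values should be read with that. RNA sequencing had been performed on EpCAM+ epithelial cells sorted from the whole small intestine of C57BL6/J mice 24 h after surgery. The sham group (n = 7) underwent the operation without occlusion, and the pMCAO group (n = 5) underwent permanent middle cerebral artery occlusion, which models ischaemic stroke without reperfusion. The study describes a larger pMCAO group, and any sample beyond these 12 was not analysed here. Both groups were wild type, anaesthetised for surgery and, according to the methods of the study, young adults, and the labels gave no age. The comparison asked which transcripts of the gut epithelium differ after cerebral ischaemia.

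Patatin-like and DDHD enzymes release fatty acids from membrane phospholipids and stored neutral lipids. In the small intestine, absorptive enterocytes take up fatty acids and lysophospholipids, rebuild them into triglyceride and phospholipid, and either export them in chylomicrons or hold them in lipid droplets. Patatin-like enzymes use a catalytic serine and aspartate, and DDHD enzymes carry a domain named after its metal-binding residues.

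The total count per sample ranged from 7418730 to 26724213 in the sham group and from 11021897 to 31925579 in the pMCAO group (two-sided exact permutation test, p = 0.0909). Levels of single genes are given as counts scaled to a common library size (CPM, with TMM factors), and a floor of 3 counts corresponded to 0.0691 to 0.724 CPM on this scale, depending on the sample, which covers counting error only. All 7 epithelial marker genes (Epcam, Cdh1, Krt8, Krt18, Krt19, Krt20 and Vil1) were present in every sample, with a summed level of 5290 to 11100 CPM in sham and 5400 to 12200 CPM in pMCAO samples. The libraries numbered 58 to 61, which held 3 sham and 1 pMCAO samples, stood apart from the later ones on the first principal component, which carried 40.5% of the variance. The group differences of the 6 genes and of the other lipid genes named below are therefore given from the group alone and from a fit that also held 4 runs of library numbers (58 to 61, 62 to 65, 66 to 68, and 72). Whether these runs are days of tissue collection is not known. They came from an earlier analysis that matched the authors' fold changes, so fits with the runs are not independent of the authors' fit.

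Pnpla7 encodes an endoplasmic reticulum lysophospholipase that splits lysophosphatidylcholine into a free fatty acid and glycerophosphocholine. The gene (ENSMUSG00000036833) spans positions 24976033 to 25054057 of chromosome 2 (GRCm38, plus strand), with 36 merged exons that cover 7496 nt. Its start region in RefSeq (GRCm38.p6, chr2:24975783-24976082, plus strand) is shown because Pnpla7 is the member with the widest group difference. The 300 bases run from 250 before to 50 after the annotated start, and capitals mark matches to the E-box CACGTG and to the glucocorticoid response half-site TGTTCT.
Pnpla7 promoter: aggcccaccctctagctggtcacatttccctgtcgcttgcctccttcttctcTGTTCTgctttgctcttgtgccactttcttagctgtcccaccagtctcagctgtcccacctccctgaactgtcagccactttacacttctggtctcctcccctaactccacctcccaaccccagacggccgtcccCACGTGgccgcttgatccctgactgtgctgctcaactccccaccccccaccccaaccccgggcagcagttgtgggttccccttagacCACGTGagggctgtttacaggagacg
The E-box matches began 63 bases before and 25 bases after the start, and the half-site match began 198 bases before it. Of 32851 mouse start regions of this length, 7.15% held CACGTG and 19% held TGTTCT on either strand. The TATA box (TATAAA, in 13.6% of start regions), the CCAAT box (37.4%), the GC box (GGGCGG, in 35.7%) and the cAMP response element (TGACGTCA, in 1.79%) were also searched on both strands and had no match in these 300 bases. The window held 8 CpG dinucleotides, where the median over all start regions was 7 (quartiles 3 and 20). Start regions of Pnpla6, Pnpla2, Pnpla8 and Ddhd1 held between 16 and 40 CpG dinucleotides each. Matches are descriptions of the letters and were not tested for binding.

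Pnpla7 transcripts were lower in every post-stroke sample than in every sham-operated sample. In the 7 sham samples, the level ran from 11.4 to 62.2 CPM with a median of 30.9 CPM. In the 5 pMCAO samples, it was 7.52, 7.52, 7.14, 3.28 and 6.63 CPM. The highest pMCAO samples thus lay under the lowest sham sample, sham replicate 7. In CPM, the sham group was far more spread than the pMCAO group. On the log2 scale, the standard deviations were closer, at 0.837 for sham and 0.502 for pMCAO samples. The mean level was 29.5 ± 17.2 CPM (SD, n = 7) in sham-operated and 6.42 ± 1.79 CPM (SD, n = 5) in post-stroke mice. The log2 fold change was -1.89 (SE 0.42, 95% interval -2.78 to -1.0), which is 3.71-fold lower. With the 4 library runs, it was -2.13 (SE 0.32, 95% interval -2.81 to -1.46), or 4.39-fold lower. In bulk RNA, fewer cells of a type that express a gene and less of its RNA per cell cannot be told apart.

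**Figure D1:**
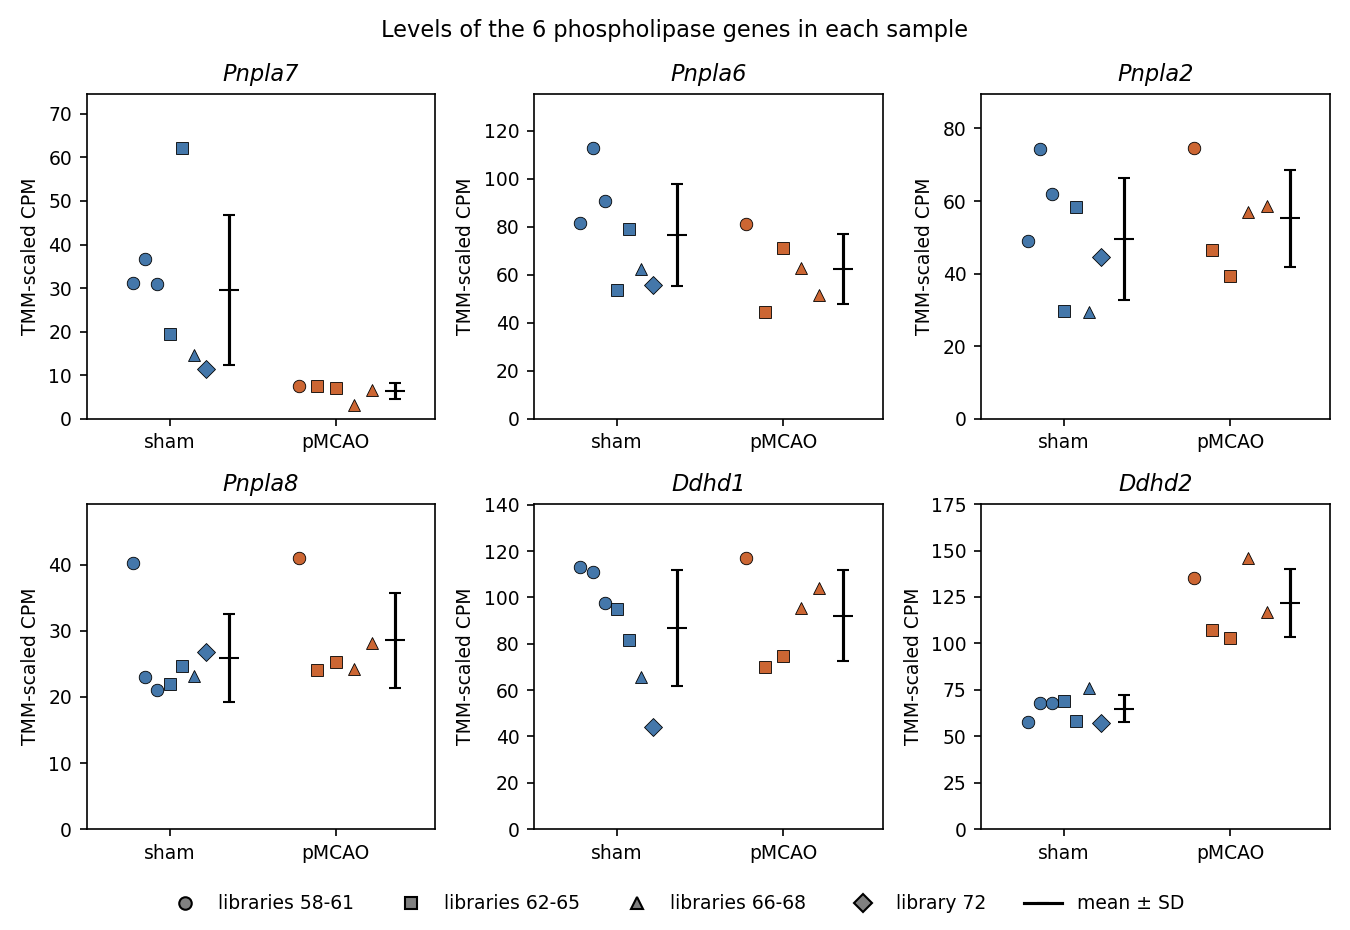
Each panel plots the TMM-scaled CPM of a gene in the 7 sham (blue) and 5 pMCAO (orange) samples, with the marker shape giving the run of library numbers and the bar the group mean ± SD. Pnpla7 sits at 3.28 to 7.52 CPM in pMCAO and at 11.4 to 62.2 CPM in sham, Ddhd2 sits at 103 to 146 CPM in pMCAO and at 57.2 to 76.2 CPM in sham, and the groups overlap for the other 4 genes.

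The lower Pnpla7 level was present within each run of libraries that held both groups. Within libraries 58 to 61, the log2 difference was -2.11, between 3 sham and 1 pMCAO samples. It was -2.23 within libraries 62 to 65, with 2 samples a group. Within libraries 66 to 68, with 1 sham and 2 pMCAO samples, it was -1.62. A lower pMCAO mean within each of the 3 runs was found for 13.2% of the 14462 genes tested, and for 2 of the 6 members, Pnpla7 and Pnpla6. Every pMCAO sample lay below every sham sample for 0.194% of genes and for 1 member, Pnpla7, which had been chosen on this contrast. Sham replicate 5 held the highest Pnpla7 level, and without it the log2 fold change was -1.59.

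Pnpla6 encodes neuropathy target esterase, which deacylates phosphatidylcholine and lysophosphatidylcholine at the endoplasmic reticulum and is the closest relative of Pnpla7. The gene (ENSMUSG00000004565) lies on chromosome 8 from 3515384 to 3544267 on the plus strand. Its level in sham samples ran from 53.8 to 113 CPM with a median of 79.1 CPM. In the pMCAO samples, it was 81.2, 44.6, 71.3, 63 and 51.8 CPM, so that the groups overlapped. Between the groups, the log2 fold change of Pnpla6 was -0.26 (SE 0.22, 95% interval -0.72 to 0.20) and did not pass the limma-voom test (adjusted p = 0.743), nor did it with the 4 library runs (log2 fold change -0.20, SE 0.17, adjusted p = 0.671). Whether Pnpla6 differed from Pnpla7 in its response was not tested. The ratio of Pnpla7 to Pnpla6 CPM was 0.204 to 0.787 across sham samples and 0.052 to 0.168 across pMCAO samples. Pnpla6 also moved with the library runs among sham samples, at 95.2 ± 16.2 CPM (SD, n = 3) in libraries 58 to 61 and 62.8 ± 11.4 CPM (SD, n = 4) in the later libraries, with no overlap. Every sham sample of libraries 58 to 61 lay above every later sham sample for 10.2% of the genes tested and for 2 members, Pnpla6 and Ddhd1. On the log2 scale, the later sham samples differed from those of libraries 58 to 61 by -0.6 for Pnpla6 and -0.63 for Ddhd1. The mean difference was similar for Pnpla7 (-0.63) and Pnpla2 (-0.65), whose samples overlapped. It was -0.16 for Pnpla8 and 0.01 for Ddhd2.

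Pnpla2 encodes adipose triglyceride lipase, which removes the first fatty acid from stored triglyceride. The gene (ENSMUSG00000025509) lies on chromosome 7 from 141455198 to 141460743 on the plus strand and is the shortest of the 6, with 3020 nt of merged exons. Sham samples ran from 29.4 to 74.4 CPM with a median of 49.0 CPM. The pMCAO samples held 74.7, 46.5, 39.4, 57.0 and 58.7 CPM, and the groups overlapped over most of their range. Its log2 fold change was 0.24 (SE 0.24, 95% interval -0.27 to 0.76, limma-voom adjusted p = 0.794), and it was 0.39 (SE 0.21, adjusted p = 0.457) with the 4 library runs. The difference was 0.29, 0.04 and 0.97 within the 3 runs that held both groups.

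Pnpla8 encodes a calcium-independent phospholipase of mitochondria and peroxisomes. It lies on chromosome 12 from 44221370 to 44322532 on the plus strand (ENSMUSG00000036257). Its level was between 21 and 26.8 CPM in 6 of the 7 sham samples and 40.3 CPM in sham replicate 1. The pMCAO samples held 41.0, 24.1, 25.3, 24.2 and 28.1 CPM. Both high samples, sham replicate 1 and pMCAO replicate 1, were of libraries 58 to 61, and the groups overlapped. The log2 fold change was 0.09 (SE 0.20, 95% interval -0.34 to 0.52, limma-voom adjusted p = 0.922), and 0.20 (SE 0.19, adjusted p = 0.691) with the 4 library runs. Its exons share 91 nt with Gm47096 on the opposite strand, and the sources used here do not say if reads were counted by strand.

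Ddhd1 encodes a phospholipase that prefers phosphatidic acid. The gene (ENSMUSG00000037697) spans positions 45588467 to 45658143 of chromosome 14 (minus strand). Sham samples ran from 44.2 to 113 CPM with a median of 95 CPM. The pMCAO samples held 117, 69.9, 74.7, 95.3 and 104 CPM and lay within the sham range except for pMCAO replicate 1. For Ddhd1, the log2 fold change was 0.15 (SE 0.24, 95% interval -0.36 to 0.65, limma-voom adjusted p = 0.883), and 0.11 (SE 0.16, adjusted p = 0.825) with the 4 library runs. Like Pnpla6, Ddhd1 was higher in the sham samples of libraries 58 to 61 (107 ± 8.1 CPM, SD, n = 3) than in the later sham samples (71.7 ± 21.9 CPM, SD, n = 4), where the nearest samples were at 97.7 and 95 CPM. The antisense gene Gm15601 shares 718 nt, or 5.1%, of its exons.

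Ddhd2 encodes a lipase of triglyceride and diacylglycerol that also acts on phospholipids, and the gene (ENSMUSG00000061313) spans positions 25725346 to 25754596 of chromosome 8 (minus strand). Ddhd2 transcripts were higher in every post-stroke sample than in every sham-operated sample. The sham samples ran from 57.2 to 76.2 CPM with a median of 67.8 CPM. The pMCAO samples held 135, 107, 103, 146 and 117 CPM. The lowest pMCAO sample, replicate 3, thus lay above the highest sham sample, replicate 6, and both groups were narrow. The log2 standard deviation of Ddhd2 among sham samples was 0.162, and 0.712% of the genes tested had a smaller value.

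Ddhd2 had a mean level of 64.8 ± 7.32 CPM (SD, n = 7) in sham-operated and 122 ± 18.4 CPM (SD, n = 5) in post-stroke mice. Its log2 fold change was 0.92 (SE 0.16, 95% interval 0.58 to 1.26), a 1.89-fold higher level. It missed the limma-voom threshold after adjustment over all genes (adjusted p = 0.0727, unadjusted p = 3.02e-05). With the 4 library runs, the adjusted p was 0.0137 at a log2 fold change of 0.85 (SE 0.14, 95% interval 0.55 to 1.15), which passed the test but stayed under the fold threshold for a call. The runs had been found by matching the authors' fold changes for the same groups, and this adjusted p should be read with that. DESeq2 on the group alone gave an adjusted p of 3.24e-05, and edgeR's quasi-likelihood test gave 0.0893. Ddhd2 was higher within each run, by 1.07, 0.73 and 0.78 on the log2 scale. A higher pMCAO mean within each of the 3 runs was found for 16.9% of genes and for 3 members, Pnpla2, Pnpla8 and Ddhd2. Every pMCAO sample lay above every sham sample for 0.311% of genes and for 1 member, Ddhd2. Gm17484 shares 117 nt of its exons on the opposite strand.

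**Figure D2:**
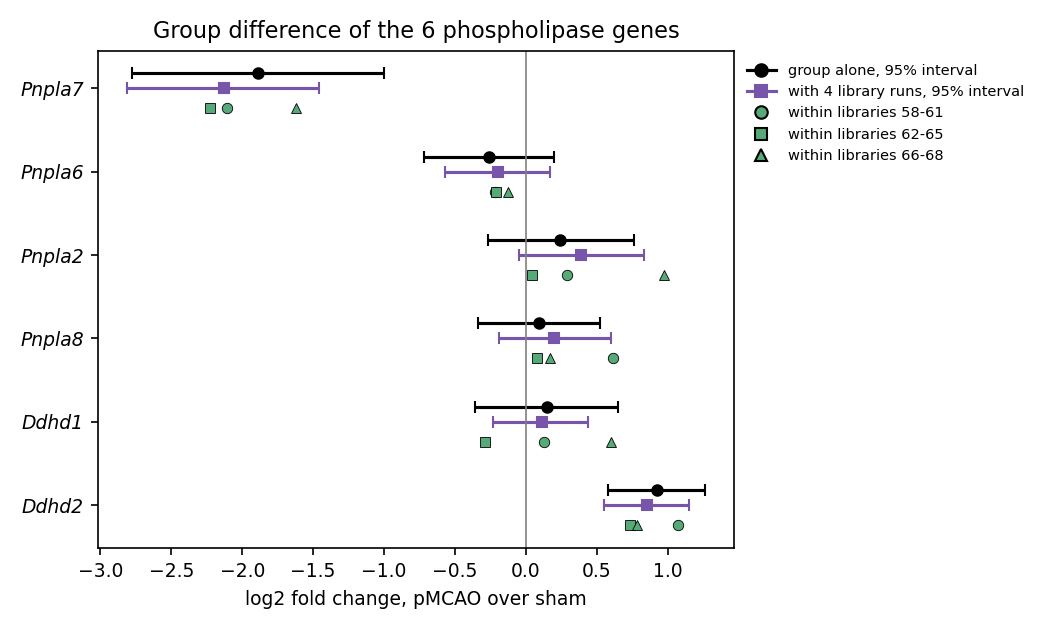
The log2 fold change of pMCAO over sham (horizontal axis) is plotted for each gene with its 95% interval from the group alone (black) and with the 4 library runs (purple), above the differences within the 3 runs that held both groups (green). Pnpla7 lies left of 0 (-1.89 and -2.13) and Ddhd2 right of 0 (0.92 and 0.85) in both fits, and the intervals of the other 4 genes include 0. Pnpla7 had been chosen on this contrast, so the place of its intervals is a description and not a test.

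Calls required an adjusted p no greater than 0.05 together with a log2 fold change of 1 or more in either direction. By limma-voom on the group alone, 0% of the 14462 genes were called, so 0 of the 6 members were called. At an unadjusted p under 0.05, there were 1219 genes, edgeR also called 0 genes, and DESeq2 called 70. With the 4 library runs, 0.325% of genes were called, and 1 member, Pnpla7, was among them, from which nothing is read because of how it was chosen. The adjusted p alone was passed by 0.477% of genes with the runs, and among the 5 members other than Pnpla7 by Ddhd2. The median log2 fold change over all genes tested was 0.06, and 0.01 with the runs.

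Pnpla7 and Ddhd2 lay on opposite sides in the pMCAO samples, so their CPM ratio had to separate the groups and is given only as a description. The ratio of Ddhd2 to Pnpla7 CPM, which is not per length, ran from 0.937 to 5.24 across sham samples. In pMCAO samples, it was 18, 14.3, 14.4, 44.6 and 17.6. The highest ratio was in pMCAO replicate 4, which held both the lowest Pnpla7 and the highest Ddhd2 level of all 12 samples. Over the 12 samples, the Pearson correlation of their log2 CPM was -0.856, a description of points that share the 2 groups, the library runs and the scaling. Pnpla7 with Pnpla6 gave 0.574, and Ddhd2 with Ddhd1 gave 0.263.

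**Figure D3:**
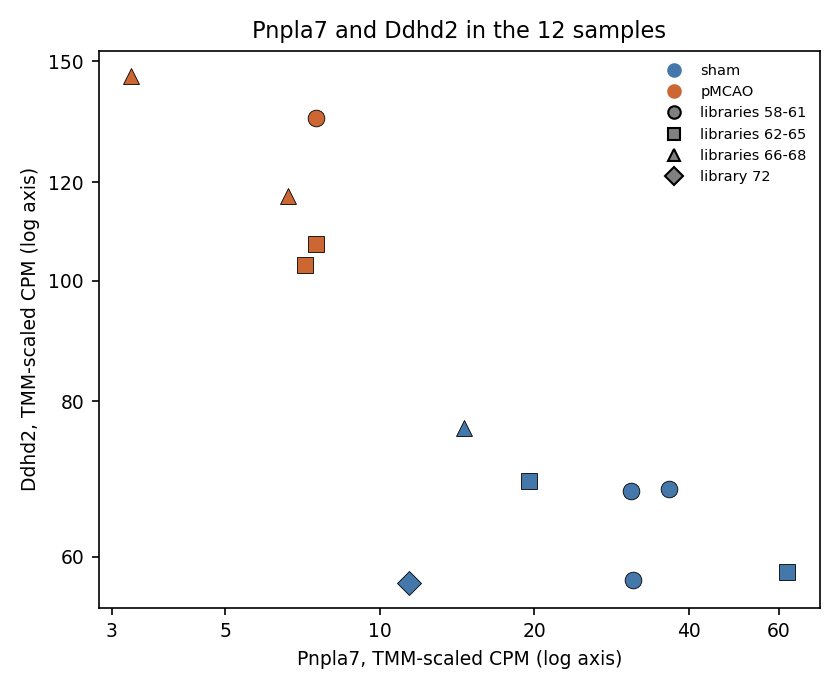
Each point is a sample, placed by its Pnpla7 level (horizontal, log axis) and Ddhd2 level (vertical, log axis) in TMM-scaled CPM, with colour for the group and shape for the library run. The 5 pMCAO samples (Pnpla7 at most 7.52 CPM, Ddhd2 at least 103 CPM) lie at the upper left, apart from the 7 sham samples.

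The genes most like Pnpla7 over the 12 samples by Pearson correlation of log2 CPM were Hivep2 (0.918), a zinc finger transcription factor, and Eef2k (0.911), the kinase of elongation factor eEF2. They were followed by CAAA01154573.1 (0.902), by Mbnl2 (0.901), a splicing regulator, and by Malat1 (0.900), a nuclear long non-coding RNA. Eef2k had a mean of 73.9 CPM in sham and 18.6 CPM in pMCAO samples. Malat1, a nuclear transcript, ran from 6540 to 12900 CPM in sham and from 5140 to 8130 CPM in pMCAO samples, and its part in the Pnpla7 difference was not tested. For Ddhd2, the closest were Ahcyl2 (0.933) and Sfxn1 (0.923), a mitochondrial serine carrier. Those closest to Pnpla6 were Ubap1 (0.955) and Plekhh1 (0.933), to Pnpla2 Mta3 (0.956) and Ap2a2 (0.926), to Pnpla8 Arl4aos (0.868) and Hnrnpa3 (0.866), and to Ddhd1 Efr3b (0.958) and Edrf1 (0.936). All of these values describe points that share groups and library runs.

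Per length, Pnpla2 had the highest level of the 6 genes in sham-operated epithelium, at 16.4 ± 5.54 CPM per kb of exon (SD, n = 7). Ddhd2 followed at 9.08 ± 1.02 CPM per kb, Pnpla6 at 7.91 ± 2.19 and Ddhd1 at 6.17 ± 1.77. Pnpla7 stood at 3.93 ± 2.29 CPM per kb and Pnpla8 was lowest at 1.82 ± 0.469. None of the 5 neighbouring pairs in this order differed past the threshold after adjustment (exact two-sided sign-flip permutation test, smallest possible p = 0.0156). For Ddhd2 and Pnpla6, the exact permutation p was 0.203, and for the other 4 pairs it was 0.0312 to 0.0469 (adjusted p = 0.0586). In pMCAO samples, Ddhd2 reached 17 ± 2.58 CPM per kb (SD, n = 5) beside 18.3 ± 4.44 for Pnpla2. Pnpla7 had the lowest mean there, at 0.856 ± 0.239 CPM per kb beside 2.01 ± 0.504 for Pnpla8.

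**Figure D4:**
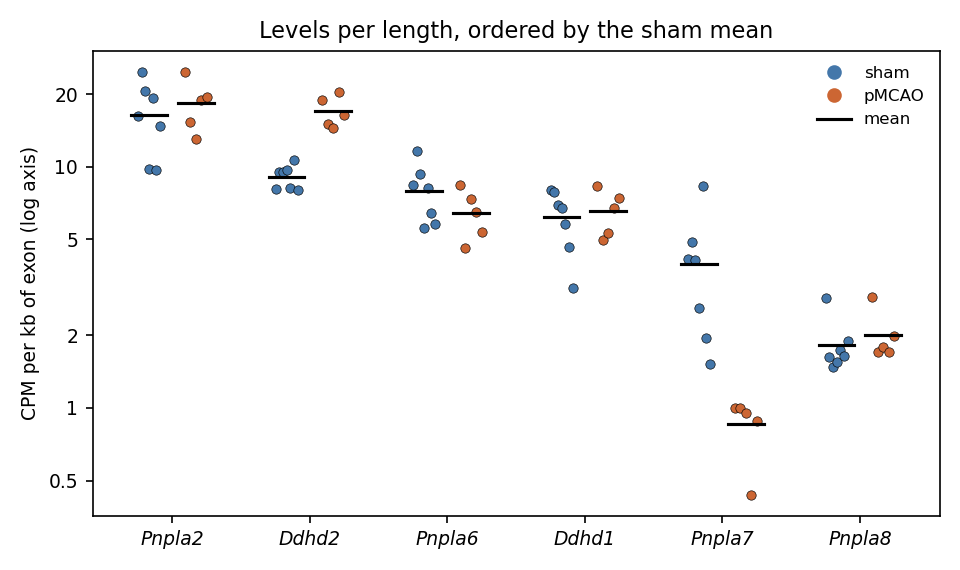
CPM per kb of merged exons (vertical, log axis) is plotted for each gene in sham (blue) and pMCAO (orange) samples, in the order of the sham means, with lines at the group means. Pnpla2 has the highest mean in both groups, the means are 3.93 and 0.856 CPM per kb for Pnpla7 and 9.08 and 17 for Ddhd2.

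Close relatives of the 6 genes did not pass the test. Pla2g6, another calcium-independent phospholipase with a patatin domain, was at 21 ± 5.78 CPM (SD, n = 7) in sham-operated and 20.8 ± 2.27 CPM (SD, n = 5) in post-stroke mice (log2 fold change 0.04, SE 0.20, limma-voom adjusted p = 0.964, and 0.17, SE 0.19, adjusted p = 0.765 with the 4 library runs). Sec23ip, which carries the DDHD domain and binds a coat protein of vesicles that leave the endoplasmic reticulum, gave 0.05 (SE 0.23, limma-voom adjusted p = 0.965) and, with the runs, -0.18 (SE 0.20, adjusted p = 0.766). Pnpla1 and Pnpla3, whose products act on skin lipids and on liver lipid droplets, had few counts, with 0 to 122 per sample for Pnpla1 and 0 to 165 for Pnpla3. Pnpla1 was at or under 3 counts in 3 of the 12 samples and Pnpla3 in 5. Their log2 fold changes were -0.89 (SE 1.25) and 1.57 (SE 1.17), and -1.84 (SE 1.21) and 0.44 (SE 0.70) with the runs. Pnpla1 was highest in sham replicate 5 (7.05 CPM), which also held the highest Pnpla7 level.

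Genes of neighbouring lipid pathways were counted in 5 lists, chosen with earlier results known. By limma-voom, 0 genes of these lists passed an adjusted p of 0.05 in either direction, in either fit. At an unadjusted p under 0.05, 8.43% of all genes tested were found on the group alone and 12.7% with the 4 library runs. Of 15 tested genes of triglyceride lipolysis and lipid droplets, the pathway of Pnpla2 and Ddhd2, 1 was higher and 0 lower at an unadjusted p under 0.05, and the median log2 fold change was -0.06. With the runs, 0 were found in either direction and the median was -0.10. The most positive log2 fold changes were 2.04 (SE 0.93) for Fitm2, which acts in lipid droplet budding, and 0.89 (SE 1.29) for the monoglyceride lipase Mgll, and with the runs these were 1.22 (SE 0.63) and -0.44 (SE 0.32). The most negative were -0.57 (SE 0.39) for Cidec, which acts in droplet fusion, and -0.36 (SE 0.26) for the lysosomal acid lipase Lipa, and with the runs -0.37 (SE 0.27) and -0.36 (SE 0.25).

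Lysophospholipid and glycerophosphocholine breakdown, the pathway of Pnpla7 and Pnpla6, had 2 genes higher and 2 lower of 16 tested at an unadjusted p under 0.05, with a median of 0.08. With the runs, 3 were higher and 2 lower, with a median of 0.06. The 2 higher genes on the group alone were Enpp2, which makes lysophosphatidic acid outside the cell, and Lypla1, a thioesterase with lysophospholipase activity that is named here after its values were seen. Enpp2 had a log2 fold change of 2.19 (SE 0.86), or 1.40 (SE 0.61) with the runs, at a mean of 1.17 CPM in sham and 2.79 CPM in pMCAO samples. Lypla1 had 0.54 (SE 0.19), or 0.58 (SE 0.18) with the runs. The 2 lower genes were Plbd1, at -1.09 (SE 0.46) and -0.56 (SE 0.25) in the respective fits, and Lypla2, a relative of Lypla1, at -0.85 (SE 0.31) and -0.90 (SE 0.28). Gdpd1, a glycerophosphodiesterase, had 0.63 (SE 0.38) and 0.36 (SE 0.21) and was not among those counted.

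Phosphatidic acid turnover, the pathway of Ddhd1, also had 2 higher and 2 lower of 23 tested, with a median of -0.07. With the runs, 2 were higher and 4 lower, with a median of -0.08. The lipid phosphate phosphatases Ppap2b and Ppap2a had log2 fold changes of -1.58 (SE 0.68) and 0.58 (SE 0.24), and -1.81 (SE 0.63) and 0.45 (SE 0.19) with the runs. The phospholipase D gene Pld2 had -0.51 (SE 0.19) and, with the runs, -0.50 (SE 0.20). The acyltransferase Agpat6 had 1.08 (SE 0.47) and, with the runs, 1.03 (SE 0.36).

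Synthesis of phosphatidylcholine and phosphatidylethanolamine had 0 genes higher and 1 lower of 23 tested, with a median of -0.07. With the runs, 0 were higher and 3 lower, with a median of -0.08. The lower gene on the group alone was the phosphatidylserine synthase Ptdss1 (log2 fold change -0.51, SE 0.20, and -0.56, SE 0.20, with the runs). The ethanolamine kinase Etnk2 had -0.71 (SE 0.60) and, with the runs, -0.38 (SE 0.53). Mboat2 and Pcyt1b, at means under 2 CPM, had 1.37 (SE 1.08) and 0.89 (SE 0.58), and -0.29 (SE 0.71) and 0.36 (SE 0.55) with the runs.

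Of 13 other phospholipases A2 and B, 0 were found in either direction in either fit, with a median of 0.30 on the group alone and 0.15 with the runs. The cytosolic phospholipase Pla2g4a had a log2 fold change of 1.18 (SE 1.04) on the group alone and -0.58 (SE 0.46) with the runs. The secreted enzyme Pla2g10 had 0.73 (SE 0.71) and 0.44 (SE 0.54). The remaining named genes, Pla2g2d and Pla2g16, had -0.03 (SE 1.21) and -0.02 (SE 0.49), and -0.43 (SE 0.94) and -0.45 (SE 0.30) with the runs.

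**Figure D5:**
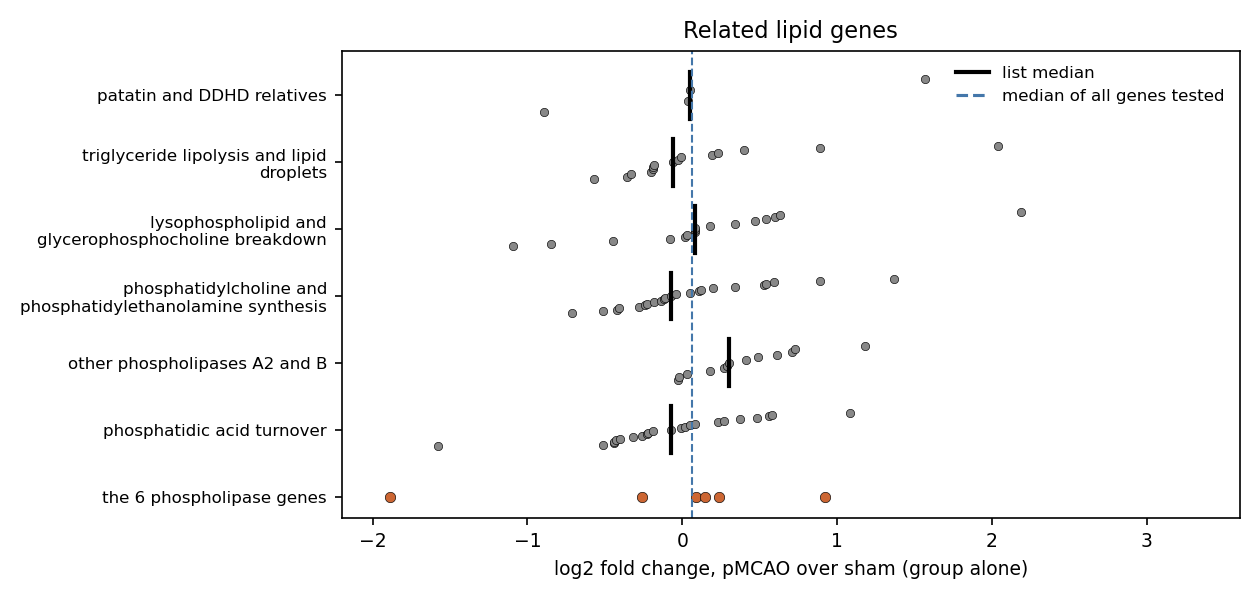
The log2 fold change of pMCAO over sham on the group alone (horizontal axis) is plotted for each tested gene of the lists of relatives and neighbouring lipid pathways, with a bar at each list's median, above the 6 phospholipase genes in orange. The list medians lie between -0.07 and 0.30, around the median of all genes tested (0.06, dashed).

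Markers of the cell types a sort of EpCAM+ cells could hold were read beside these results. The 8 enterocyte markers summed to 14400 to 24400 CPM in sham and 17100 to 51600 CPM in pMCAO samples. The value of 51600 CPM came from pMCAO replicate 1, the only pMCAO sample of libraries 58 to 61. In the later libraries, the sum was at most 24500 CPM. Of the 8 markers, 5 were higher in pMCAO samples at an unadjusted p under 0.05 (0 after adjustment). With the 4 library runs, 4 of the 8 were higher at an unadjusted p under 0.05, and Sis, the brush-border sucrase-isomaltase, also after limma-voom adjustment (adjusted p = 0.0337, log2 fold change 0.74). Their part in the Ddhd2 difference was not tested. The 7 goblet cell markers summed to 4130 to 8120 CPM in libraries 58 to 61 and 20600 to 55100 CPM in the later ones. The sham and pMCAO ranges of this sum overlapped. Enteroendocrine markers (179 to 305 and 1170 to 2500 CPM) and tuft cell markers (18.7 to 56.7 and 231 to 1040 CPM) split the same way. The epithelial markers split the other way (9830 to 12200 and 5290 to 8610 CPM). The other marker sums overlapped between these libraries. The part of any of these markers in the Pnpla6 and Ddhd1 levels was not tested. At an unadjusted p under 0.05, 0 of the 7 goblet cell markers were higher in pMCAO samples on the group alone and 4 with the runs. The 8 lymphocyte markers summed to 50.7 to 521 CPM in sham and 56.9 to 375 CPM in pMCAO samples, with Cd3e, Cd3g and Cd79a at 0 in some samples, and 0 of the 8 on the group alone and 4 with the runs were higher at an unadjusted p under 0.05. Of the endothelial and stromal markers 1 of 9, and of the nerve and glial markers 1 of 6, were in the table.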

How the data were processed

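RNA from sorted EpCAM+ small-intestinal epithelial cells of 7 sham and 5 pMCAO mice was sequenced after ribosomal RNA cleavage. According to the methods of the study, reads were aligned to GRCm38 with STAR and assigned to genes with featureCounts. The deposited table held the authors' whole-number counts per gene, used here, and CPM columns, which equalled the counts scaled to the table total in 190260 of 190260 values within 0.001. Its columns of the authors' own comparison (fold change, average expression, p-value and FDR) were not used. The 12 sample columns matched the labels by name, with 0 unmatched.

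Counts were filtered with filterByExpr (minimum count 10, 14462 genes kept, 1393 removed), TMM-scaled and tested with limma-voom on the group alone (limma 3.58.1, edgeR 4.0.16, R 4.3.3) with Benjamini-Hochberg adjustment over all genes. The scripts were tested on simulated data with no library-run effect. At an absolute log2 fold change of 1.5, 57.6% of changed genes were called on the group alone and 54.3% with the 4 runs. At 2.5, these shares were 87.5% and 85.2%. DESeq2 (1.42.0), edgeR, scaling, filter, weight, library and replicate alternatives were also run. P-values are two-sided. The collection day, for which the study corrected, is not in the labels. The 4 library runs came from an earlier analysis of these data that matched the authors' fold changes, so they are not independent of the authors' fit. Library 72 stands alone in its run and carries no group information in that fit.

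The members and lists were chosen with earlier results of these data known. Named genes were the members, their relatives in the table, the 2 largest rises and falls in each other list, and the 5 (Pnpla7) or 2 genes most correlated with each member. Promoter motifs were chosen after the data had been seen. Lengths and overlaps came from GENCODE M21, and start regions from RefSeq, which matched 5 of the 6 members.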

Additional observations from a re-analysis of the deposited data

Results flagged for a closer look

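Over 20 groups of samples of the members and their relatives, 3 held a sample far from the others by Dixon's test, where chance gives about 1 group in 20. Pnpla7 in pMCAO replicate 4 was at a log2 CPM of 1.76, below the other 4 pMCAO samples (2.87 ± 0.08, SD, n = 4). Pnpla8 in sham replicate 1 was at 5.34, above the other 6 sham samples (4.55 ± 0.12, SD, n = 6). Sec23ip in pMCAO replicate 3 was at 4.21, below the other 4 (4.84 ± 0.11, SD, n = 4). Without pMCAO replicate 4, the log2 fold change of Pnpla7 was -1.76 (SE 0.42).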

How the results depend on the processing

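The number of genes called, 0 on the group alone, was 3 with no scaling, 16 with early or later libraries as a term, 18 with sample quality weights, 47 with the 4 library runs, 70 with DESeq2, 156 with library number and 243 with the replicate block. With the 4 runs, edgeR called 21 and DESeq2 97. Leaving out a sample gave 0 to 17 genes, 17 without pMCAO replicate 3, 8 without pMCAO replicate 1 and 5 without sham replicate 7. With the 4 runs it gave 30, 31, 28, 67, 50, 4 and 47 without sham replicates 1 to 7, and 6, 58, 86, 21 and 19 without pMCAO replicates 1 to 5. Of the members, 1 (Pnpla7, which was chosen on this contrast, so that its calls carry no weight) was called with DESeq2, library number, the 4 runs (also by edgeR and DESeq2) and the replicate block, 0 when a sample was left out, and 0 to 1 when one was left out with the 4 runs, the 0 without pMCAO replicate 1. Of the related genes, 1 (Enpp2) was called with library number and 2 (Gdpd1 and Plbd1) with the replicate block, and 0 when a sample was left out. The replicate numbers pair the samples only by number, since same-numbered samples correlated at -0.239 to 0.398 and 1 of 5 correlated best with its own number.

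Pnpla7 stayed lower under every alternative run, from -2.53 (replicate block) to -1.59 (without sham replicate 5). Ddhd2 stayed higher, from 0.76 to 1.17. Its adjusted p was at most 0.05 in 8 of 14 settings, and in 1 of 12 with a sample left out alone. With a sample left out and the 4 runs, this held in 10 of 12. The 8 settings include limma-voom, edgeR and DESeq2 with the 4 runs, which had been found by matching the authors' fold changes. The edgeR, DESeq2 and left-out-sample fits with the runs were not among the planned fits. In libraries 62 and later alone, the adjusted p of Ddhd2 was 0.435 at 0.86 (SE 0.18) over fewer samples.

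Leaving out the scaling moved the median log2 fold change of all genes to 0.35 and turned Pnpla6 to 0.01. Ddhd1 turned to -0.11 with the replicate block, and Ddhd1 and Pnpla8 crossed 0 when a sample was left out (-0.02 to 0.23 and -0.01 to 0.21, and -0.12 to 0.18 for Ddhd1 with the 4 runs). Other values near 0 also turned sign. Pla2g6 gave -0.02 (edgeR) and -0.03 (DESeq2), and Sec23ip gave -0.03 (weights), -0.04 (early or later), -0.18 (4 runs) and -0.15 (later libraries only). Mgll gave -0.42, -0.44 and -0.42 under the last 3 of these, and with the 4 runs Mboat2 gave -0.29 and Pla2g4a -0.58. Pla2g16 gave 0.02 (edgeR), 0.01 (DESeq2), 0.20 (no scaling), 0.08 (weights), 0.09 (library number) and 0.04 (later libraries only), and Pla2g2d gave 0.10, 0.06 and 0.08 under the first 3. With a sample left out, the ranges that crossed 0 were -1.68 to 0.02 (Pnpla1), -0.05 to 0.17 (Pla2g6), -0.17 to 2.00 (Mgll), -0.34 to 0.39 (Pla2g16) and -1.0 to 1.01 (Pla2g2d), and the lowest value of Sec23ip was -0.04. The causes were not tested. The order of levels was the same with longest transcripts and with each sham sample left out, but the sizes of the differences depended on the length used. With longest transcripts, the log2 difference of Pnpla2 over Ddhd2 was 0.24 in place of 0.79. That of Pnpla7 over Pnpla8 was 1.57 in place of 0.94.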
